A study of Mus musculus with 27 samples.

Results

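CatSper is the calcium channel of the sperm tail, and the sperm potassium channel sets the membrane potential at which it works. The 10 genes described here are 4 pore genes of CatSper (Catsper1, Catsper2, Catsper3 and Catsper4), 4 genes of its auxiliary subunits (Catsperb, Catsperd, Catsperg1 and Catsperg2), the pore gene of the sperm potassium channel (Kcnu1) and the gene of its auxiliary subunit (Lrrc52). They were chosen by gene symbol, and all 10 were found among the 55358 Ensembl genes of the deposited long RNA table. Each passed the filter on low values.

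The 4 pore proteins of CatSper assemble as a heterotetramer in the plasma membrane of the flagellum, with auxiliary subunits whose large extracellular parts form a canopy over the pore. Calcium entering through the channel drives hyperactivated swimming, and mice that lack a pore subunit are infertile as males. Kcnu1 encodes SLO3, a potassium channel opened by alkaline pH, and LRRC52 shifts its gating. Male germ cells pass through meiosis as spermatocytes and then build the flagellum as haploid spermatids.

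Long RNA was sequenced in 18 libraries of mouse testicular cells sorted by DNA content, 3 for each of 6 groups: 1n cells (spermatids, per the labels) and 4n cells (spermatocytes) of the knock-in lines Strep1 and Strep2 and of wild type (WT) mice. In both knock-in lines a short Strep II tag lies inside the N-terminal part of MIWI, the PIWI protein encoded by Piwil1 that binds pachytene piRNAs, and the lines differ in where it was inserted. The genotype labels call Strep1 RP68 and Strep2 RP85, while the protocol names RP85 and RP86, so which insertion belongs to which line is not known here. A further 5 small RNA libraries came from tagged MIWI purified from adult Strep1 testes. The labels give no age for the sorted cells and are silent on whether replicates are separate animals; the p-values rest on the spread between replicates, part of which can be technical.

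Values are in RPM, the deposited unit, whose denominator is not given in the sources used here; if it is M reads of the library, the value of 1 read corresponds to 33.0 to 63.2 M reads per long RNA library. The summed RPM of 7 spermatid markers was 3297 to 6067 in 1n libraries and 101 to 199 in 4n libraries, and that of 9 spermatocyte markers was 382 to 481 in 1n and 1682 to 2505 in 4n libraries. Of these 9, 7 were lower in 1n cells in WT and 8 in each tagged line (limma, false discovery rate 0.05). Sums of the somatic and spermatogonial marker lists stayed under 18 RPM in each library, though those of peritubular and endothelial cells (12.4 to 17.7 against 2.81 to 4.22 RPM) and of macrophages and blood (4.99 to 5.92 against 0.718 to 1.20 RPM) were higher in 1n than in 4n libraries. Their part in the results was not tested. Piwil1 is among the 9 spermatocyte markers and so is part of their sum. It stood at 29.7 ± 2.65 RPM in 1n Strep1, 32.9 ± 2.42 in 1n Strep2 and 35.8 ± 7.23 in 1n WT cells, and at 747 ± 50.6, 825 ± 64.6 and 640.2 ± 76.1 RPM in 4n cells of the same genotypes (SD, n = 3 each). Library names carry 2 prefixes: 1n WT and 1n Strep2 libraries share one, and 1n Strep1 and all 4n libraries share the other. The 1n against 4n contrast in WT and in Strep2, and that of 1n Strep1 with 1n WT or 1n Strep2, therefore cannot be told apart from a change of prefix, while the 1n against 4n contrast in Strep1 lies within one prefix. Setting the 1n against 4n change in Strep1 against that in WT therefore also involves the change of prefix.

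Catsperg1 and Catsperg2 are near-identical genes on chromosome 7 (GRCm39, both on the minus strand), at chr7:28880746-28913460 and chr7:29396644-29426457 in GENCODE M39. Their coding sequences are 96.4% identical over 3432 aligned bases, with a longest identical run of 341 bases. Of all 100-base windows of the canonical transcript, 21.0% of Catsperg1 and 20.7% of Catsperg2 occur unchanged in transcripts of the other gene, so the counting could split reads between them and their separate values are uncertain. The 90-base coding stretch within single exons where the genes differ most is shown, with the 18 differing bases in capitals, at chr7:28894847-28894936 for Catsperg1 and chr7:29409443-29409532 for Catsperg2.
Catsperg1: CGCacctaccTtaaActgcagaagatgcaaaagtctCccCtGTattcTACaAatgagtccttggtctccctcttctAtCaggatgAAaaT
Catsperg2: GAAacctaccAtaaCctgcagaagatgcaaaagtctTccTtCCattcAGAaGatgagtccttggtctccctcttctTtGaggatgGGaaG

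The other members are Lrrc52 at chr1:167271858-167294349 (minus strand), Catsper2 at chr2:121223107-121245096 (minus), Catsper4 at chr4:133939279-133954733 (minus), Kcnu1 at chr8:26339651-26427967 (plus), Catsperb at chr12:101370912-101592268 (plus), Catsper3 at chr13:55932373-55956830 (plus), Catsperd at chr17:56935119-56971456 (plus) and Catsper1 at chr19:5385769-5394308 (plus).  Catsperb shares 7.22% of its windows with the pseudogenes Gm18795 and Gm60318, and the canonical transcripts of the remaining 7 members share none. Catsper2 overlaps Pdia3 on the opposite strand, and Lrrc52, Kcnu1 and Catsperd each overlap a long noncoding RNA on the opposite strand. The libraries were stranded, per the labels. Strand does not separate neighbours on the same strand, which are the processed pseudogene Gm14001 for Catsper2 and the microRNA gene Gm54779 for Catsperb. Their part in the values was not tested.

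RefSeq promoter windows of 300 bases (GRCm38.p6) were available for 7 of the 10 members, in 9 windows. They were scanned on both strands for 5 motifs: TGACGTCA, the cAMP response element bound by CREM, a transcription factor of spermatids; the half-site TGACG of that element; a core of MYB family sites, CAGTTG, where the meiotic regulator MYBL1 belongs to that family; GTTGCC, a half-site of RFX factors; and TATAA, the core of the TATA box. The full cAMP response element contains its half-site, so these overlap. None of the 9 windows held the full element, which 1.79% of 32851 windows held, or the RFX half-site (12.5%). The cAMP half-site was in 2 of the 9 (Catsper2 and Catsperd) against 20.8% of all windows, and the MYB core in 1 (Catsperb) against 13.7%. The TATA core was in 2 of the 9 (Catsperb and Catsperg1) against 24.9% of all windows. A match is a description of letters only. Windows are shown for 2 genes that were lower in 1n than in 4n cells, Catsperd (chr17:56626797-56627096, plus strand) and Catsperb (chr12:101404423-101404722, plus), and 2 that were higher, Catsper3 (chr13:55784329-55784628, plus) and Catsper4 (chr4:134227334-134227633, minus), with matches on either strand in capitals (the cAMP half-site in Catsperd, the MYB core in Catsperb; the TATA core of Catsperb is left in lower case). A second window of Catsperd (chr17:56627893-56628192, plus), not shown, held none of the 5 motifs.
Catsperd: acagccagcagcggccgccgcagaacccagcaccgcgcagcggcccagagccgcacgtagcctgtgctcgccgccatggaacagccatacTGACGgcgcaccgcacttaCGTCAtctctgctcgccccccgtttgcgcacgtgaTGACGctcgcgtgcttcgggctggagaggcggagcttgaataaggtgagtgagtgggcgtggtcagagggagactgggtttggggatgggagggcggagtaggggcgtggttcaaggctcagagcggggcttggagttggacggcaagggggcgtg
Catsperb: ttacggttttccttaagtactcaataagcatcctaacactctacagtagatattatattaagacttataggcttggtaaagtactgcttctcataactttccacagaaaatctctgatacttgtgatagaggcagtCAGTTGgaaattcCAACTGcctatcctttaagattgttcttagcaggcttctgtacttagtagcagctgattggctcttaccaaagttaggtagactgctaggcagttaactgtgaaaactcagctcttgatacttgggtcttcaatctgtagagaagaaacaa
Catsper3: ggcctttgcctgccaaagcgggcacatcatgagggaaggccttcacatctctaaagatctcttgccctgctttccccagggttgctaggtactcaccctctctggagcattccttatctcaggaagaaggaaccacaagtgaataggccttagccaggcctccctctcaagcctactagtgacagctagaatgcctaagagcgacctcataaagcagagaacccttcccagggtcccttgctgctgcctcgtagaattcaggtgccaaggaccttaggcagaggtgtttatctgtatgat
Catsper4: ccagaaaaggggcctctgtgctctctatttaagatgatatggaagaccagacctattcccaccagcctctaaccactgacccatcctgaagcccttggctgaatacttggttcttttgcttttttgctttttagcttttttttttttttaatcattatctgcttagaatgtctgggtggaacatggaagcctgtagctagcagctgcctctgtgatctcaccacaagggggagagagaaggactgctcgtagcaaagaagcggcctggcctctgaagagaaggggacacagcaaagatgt

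The pore genes did not move together. Catsper1, Catsper3 and Catsper4 were 12.8 to 24.4 times as high in 1n as in 4n cells in the 3 genotypes, whereas Catsper2, whose product belongs to the same pore, was at a similar level in both populations. Catsper1 had 195, 224 and 201 RPM in 1n Strep1 libraries against 11.2, 5.37 and 12.8 RPM in 4n Strep1 libraries. It had 230, 224 and 189 RPM in 1n Strep2 against 6.56, 11.6 and 8.68 RPM in 4n Strep2 libraries, and 199, 151 and 169 RPM in 1n WT against 8.27, 11.8 and 16.8 RPM in 4n WT libraries. Every 1n library lay far above every 4n library, where 40.3% of all genes tested were higher in 1n cells without overlap. In bulk samples, fewer cells of a type and less RNA per cell cannot be told apart.

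Catsper4 stood at 141 to 172 RPM over the 9 libraries of 1n cells and at 3.56 to 12.5 RPM over the 9 of 4n cells, and Catsper3 at 60.7 to 88.2 RPM in 1n and 2.50 to 7.17 RPM in 4n libraries. Neither gene overlapped between the populations, where 40.3% of all genes tested were higher in 1n cells without overlap and 69.9% did not overlap in either direction. The log2 fold change of 1n over 4n cells for Catsper1 was 4.35 ± 0.27 in Strep1, 4.52 ± 0.27 in Strep2 and 3.68 ± 0.27 in WT (SE, limma, adjusted p = 7.3e-12, 3.8e-12 and 1.0e-10). For Catsper3 it was 4.10, 4.38 and 3.72, and for Catsper4 4.42, 4.61 and 3.94, in the same order of genotypes.

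Catsper2 had 285, 289 and 283 RPM in 1n Strep1 libraries against 243, 242 and 242 RPM in 4n Strep1 libraries. It had 266, 279 and 327 RPM in 1n Strep2 against 227, 265 and 235 RPM in 4n Strep2 libraries, and 278, 273 and 259 RPM in 1n WT against 271, 226 and 234 RPM in 4n WT libraries. The populations overlapped in WT and not in the tagged lines, and within a genotype they did not overlap for 83.2% of genes in Strep1, 83.1% in Strep2 and 83% in WT. The log2 fold change of 1n over 4n was 0.11 (95% interval -0.07 to 0.28) in Strep1, 0.18 (0.01 to 0.36) in Strep2 and -0.03 (-0.20 to 0.15) in WT, with adjusted p of 0.24, 0.053 and 0.77 in limma. Its direction and call depend on the scaling of the libraries: with RPM as deposited the values were 0.24, 0.26 and 0.15, with adjusted p of 0.022, 0.012 and 0.13. The median over all genes moved by a like amount, to 0.22 with RPM as deposited against 0.05 with the trimmed-mean scaling in WT.

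**Figure D1:**
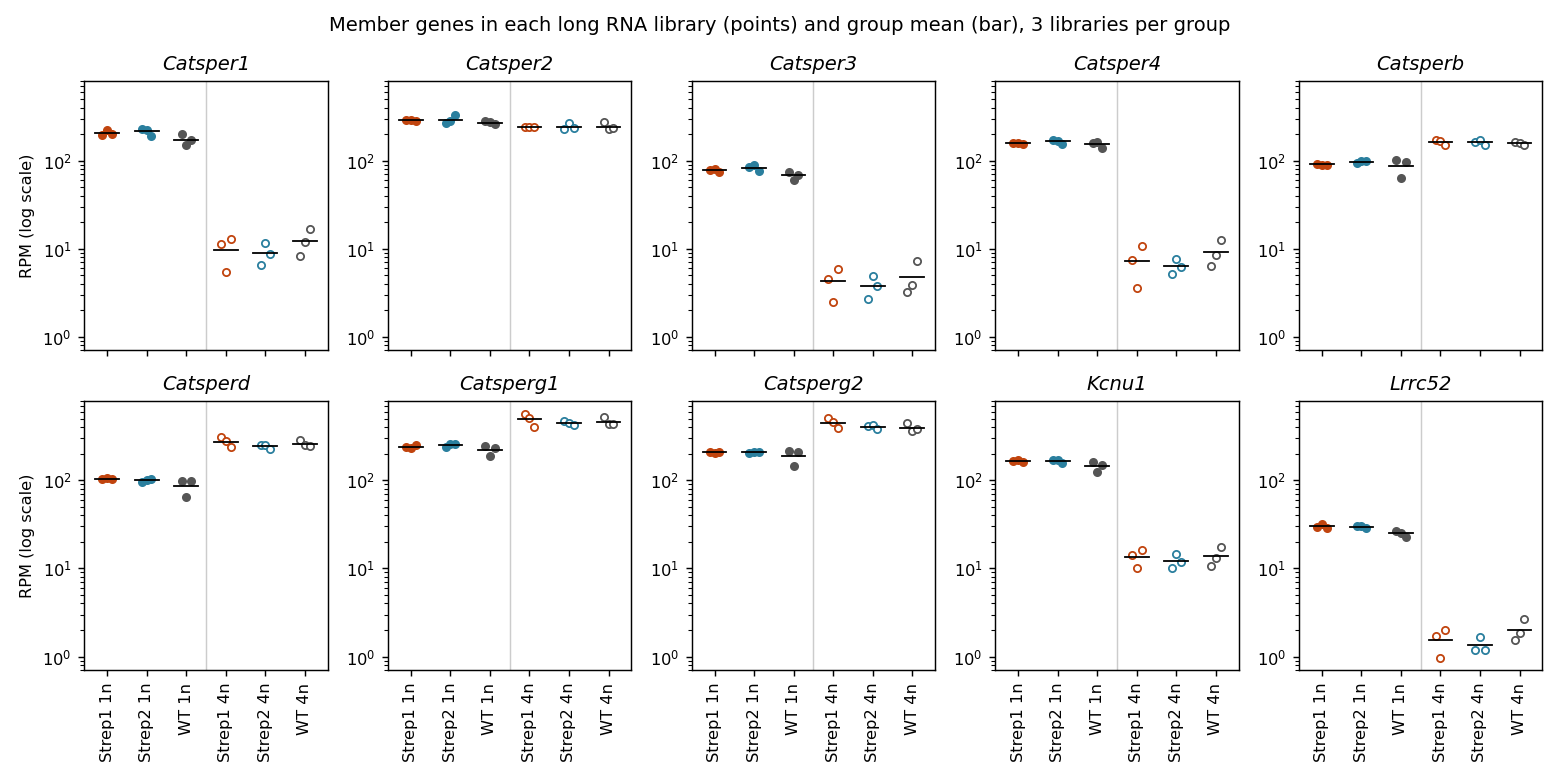
RPM (log axis) of each gene in the 18 long RNA libraries, as points by group, with 1n groups left of 4n groups, the tagged lines left of WT, and a bar at each group mean. Catsper1, Catsper3, Catsper4, Kcnu1 and Lrrc52 sit far higher in 1n libraries, the 4 auxiliary genes of CatSper sit lower there, and Catsper2 is nearly level.

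The auxiliary genes of CatSper went the other way. Catsperb, Catsperd, Catsperg1 and Catsperg2 were each lower in 1n than in 4n cells in all 3 genotypes, and remained readily measured in 1n cells. Catsperd, which encodes an auxiliary subunit needed for a stable channel in mouse sperm, had 104, 106 and 103 RPM in 1n Strep1 libraries against 314, 276 and 237 RPM in 4n Strep1 libraries. It had 95.7, 102 and 103 RPM in 1n Strep2 against 254, 254 and 229 RPM in 4n Strep2 libraries, and 97.2, 65.2 and 98.5 RPM in 1n WT against 291, 249 and 243 RPM in 4n WT libraries. Its log2 fold change was -1.52 ± 0.13 in Strep1, -1.37 ± 0.13 in Strep2 and -1.78 ± 0.13 in WT (SE, limma, adjusted p = 1.7e-09, 7.7e-09 and 1.6e-10).

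Catsperg1 had 236, 232 and 254 RPM in 1n Strep1 libraries against 570, 507 and 408 RPM in 4n Strep1 libraries, and over all genotypes it spanned 188 to 256 RPM in 1n and 408 to 570 RPM in 4n libraries. Catsperg2 spanned 144 to 217 RPM in 1n and 367 to 506 RPM in 4n libraries, and Catsperb, another subunit of the canopy, 63.1 to 101 RPM in 1n and 149 to 170.5 RPM in 4n libraries. None of the 4 overlapped between the populations, where 29.5% of all genes tested were lower in 1n cells without overlap. Log2 fold changes in Strep1, Strep2 and WT were -0.97, -0.82 and -1.07 for Catsperb, -1.16, -0.91 and -1.25 for Catsperg1 and -1.24, -1.05 and -1.26 for Catsperg2.

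The 2 near-identical genes kept almost the same proportion, though their shared sequence leaves their separate values uncertain. The ratio of Catsperg1 to Catsperg2 RPM averaged 1.18 ± 0.06 (SD, n = 9) in 1n and 1.12 ± 0.05 (SD, n = 9) in 4n libraries, with ranges of 1.12 to 1.3 and 1.04 to 1.19 that overlap. An exact two-sided permutation test over the libraries gave p = 0.033, which rose above 0.05 when any of 7 single libraries was left out. It shuffled libraries across genotypes and prefixes, although the mean 4n ratio was 1.09 in Strep1, 1.10 in Strep2 and 1.17 in WT. The ratio was chosen after seeing the data. Within genotypes the exact p was 0.2 in Strep1, 0.1 in Strep2 and 1.0 in WT, where 0.1 is the smallest value that 3 against 3 libraries allow.

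The sperm potassium channel genes were higher in 1n cells, as Catsper1 was. Kcnu1 had 165, 169 and 161 RPM in 1n Strep1 libraries against 14.2, 10.2 and 16.1 RPM in 4n Strep1 libraries. It had 169.7, 170.0 and 156 RPM in 1n Strep2 against 10.1, 14.5 and 12.0 RPM in 4n Strep2 libraries, and 160.1, 125 and 149.7 RPM in 1n WT against 10.8, 13.2 and 17.5 RPM in 4n WT libraries. Its log2 fold change was 3.50 ± 0.17 in Strep1, 3.68 ± 0.17 in Strep2 and 3.22 ± 0.17 in WT (SE, limma, adjusted p = 3.3e-13, 1.6e-13 and 1.2e-12), a ratio of 9.34 to 12.9 that was the smallest among the 5 members higher in 1n cells.

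Lrrc52, the partner of Kcnu1, had 29.7, 32.2 and 28.8 RPM in 1n Strep1 libraries against 1.71, 0.951 and 1.98 RPM in 4n Strep1 libraries. It had 30.4, 29.9 and 29.1 RPM in 1n Strep2 against 1.20, 1.66 and 1.19 RPM in 4n Strep2 libraries, and 26.9, 25.0 and 22.9 RPM in 1n WT against 1.52, 1.85 and 2.67 RPM in 4n WT libraries. Within each genotype 1n and 4n libraries did not overlap, as for 83.2% of genes in Strep1, 83.1% in Strep2 and 83% in WT. The log2 fold change was 4.14 ± 0.21 in Strep1, 4.31 ± 0.21 in Strep2 and 3.43 ± 0.21 in WT (SE, limma).

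Altogether 9 of the 10 members were called in each genotype, 5 higher and 4 lower in 1n cells, at a false discovery rate of 0.05. Among all 22824 genes tested, 83.0% were called in Strep1, 83.4% in Strep2 and 82.8% in WT, so a share of 9 in 10 is near the background. Higher in 1n cells were 44% of genes in Strep1, 43.6% in Strep2 and 43.2% in WT, and lower were 39%, 39.8% and 39.5%. A log2 fold change above 3 with a call, which all 5 had, was found for 14.6% of genes in Strep1, 15.4% in Strep2 and 13.0% in WT. The members' median log2 fold change was 1.80, 1.93 and 1.60, against 0.08, 0.04 and 0.05 over all genes. That median falls in the gap between Catsper2 and Kcnu1, where no member lay, so it does not describe a shift of the whole set.

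**Figure D2:**
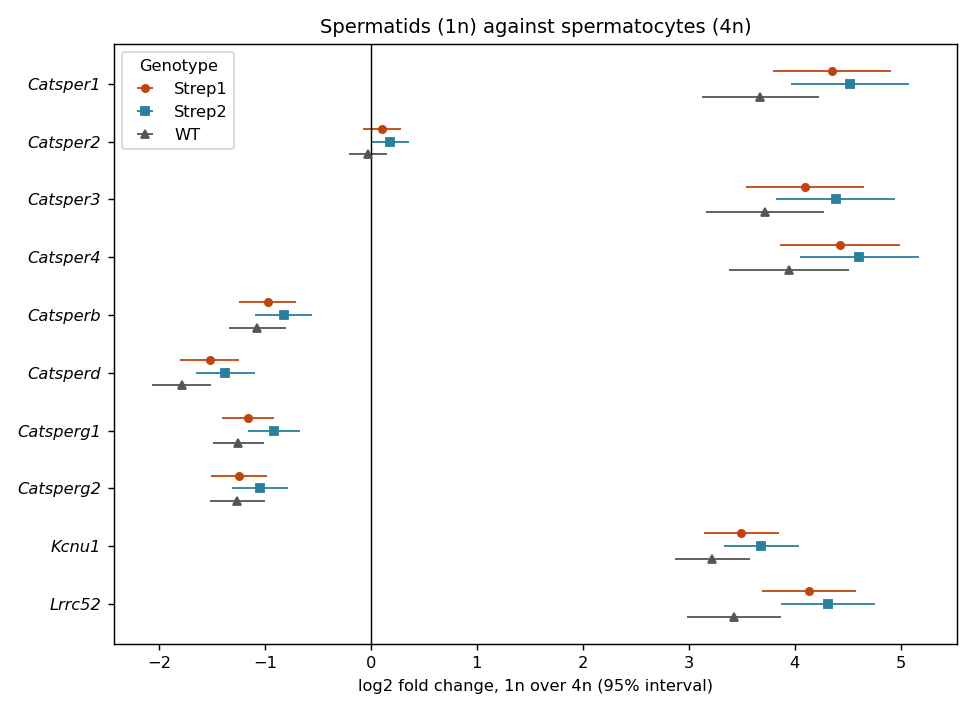
Log2 fold change of 1n over 4n cells for each gene in Strep1, Strep2 and WT, with 95% intervals from limma. Intervals of Catsper1, Catsper3, Catsper4, Kcnu1 and Lrrc52 lie at or above 2.87, those of Catsperb, Catsperd, Catsperg1 and Catsperg2 at or below -0.55, and those of Catsper2 near 0.

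Per kilobase of canonical transcript, the members changed order between the populations. In 1n WT cells Catsper2 was highest at 117 ± 4.28 RPM per kb, then Catsper4 (87.7 ± 6.95) and Catsper1 (79.1 ± 10.9), which overlapped each other, then Catsperg1 (59.7 ± 8.24), Catsper3 (48.9 ± 4.81), Catsperg2 (48.0 ± 10.1), Kcnu1 (41.0 ± 5.13), Catsperd (33.6 ± 7.29) and Catsperb (23.3 ± 5.51), each overlapping the next, and lowest Lrrc52 (9.88 ± 0.797; SD, n = 3). In 4n WT cells Catsperg1 (125 ± 13.2 RPM per kb), Catsper2 (106 ± 10.4), Catsperd (101 ± 10.0) and Catsperg2 (100.2 ± 10.5) overlapped in a chain at the top and Catsperb followed at 42.3 ± 1.80. The other pore genes and the potassium channel genes then stood at 0.798 to 5.62 RPM per kb in 4n WT cells. With the union of all annotated exons as the length, Catsper2 stood in the fifth place in 1n cells. In 4n WT cells that length put Catsperd first (70.9 ± 7.06 RPM per kb), then Catsperg1 (66.0 ± 6.97) and Catsperg2 (56.4 ± 5.91), with Catsper2 (33.1 ± 3.26) below them and not overlapping Catsperg2, so its rank depends on the transcript model in both populations.

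Levels of the spermatid-type members in 4n libraries varied between libraries, partly in the order of the spermatid markers. Summed over Catsper1, Catsper3, Catsper4, Kcnu1 and Lrrc52, they were 39.1, 22.6 and 47.4 RPM in 4n Strep1, 25.7, 40.3 and 31.9 RPM in 4n Strep2 and 30.1, 39.2 and 56.6 RPM in 4n WT libraries. In the same libraries the 7 spermatid markers summed to 199, 101 and 166 RPM in 4n Strep1, 108, 191 and 138 RPM in 4n Strep2 and 108, 122 and 167 RPM in 4n WT. In each genotype the library lowest in one sum was lowest in the other. In Strep2 and WT the highest library was also shared, while in Strep1 replicate 3 was highest in the members and replicate 1 in the markers. Between genotypes the mean 4n marker sum was lowest in WT (132 RPM, against 155 in Strep1 and 146 in Strep2). Each of the 5 members summed had its highest 4n mean in WT. The 4n mean of Catsper1 was 4.73% of its 1n mean in Strep1, 4.18% in Strep2 and 7.11% in WT, and that of Kcnu1 8.19%, 7.38% and 9.54%, beside 3.34%, 3.69% and 2.86% for the marker sum. Single markers differed: in the same order Prm1 stood at 2.42%, 3.03% and 1.94%, Akap4 at 4.33%, 4.54% and 4.81%, and Acrv1, close to Catsper1, at 5.49%, 4.49% and 6.67%. The part of spermatid RNA in the 4n values was not tested.

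**Figure D3:**
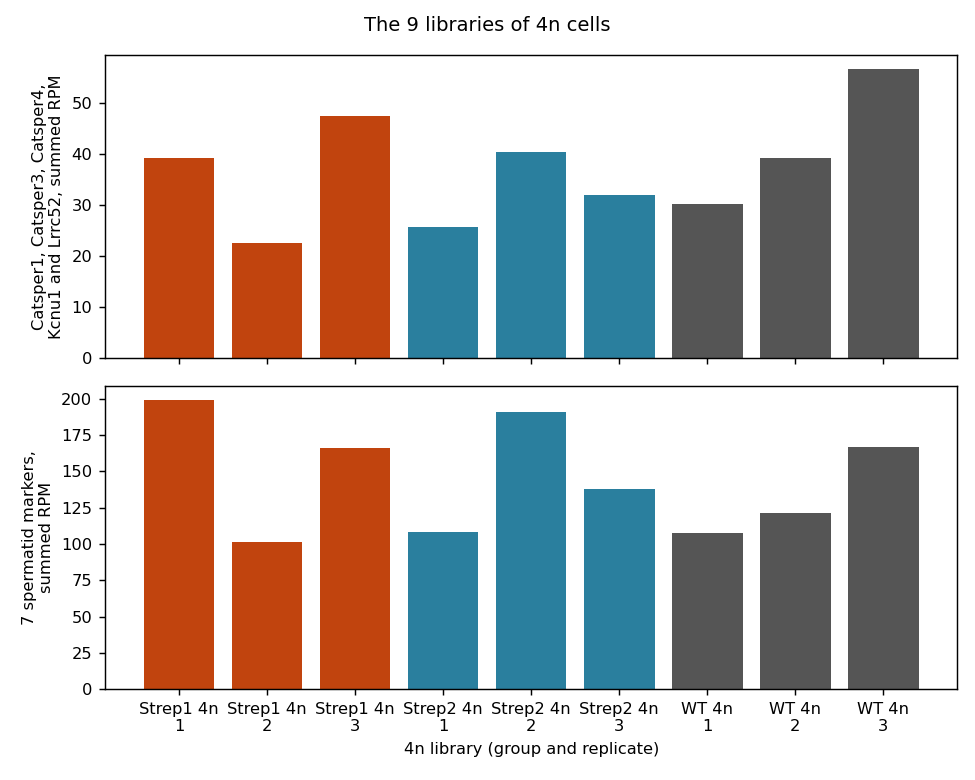
Summed RPM in each 4n library of Catsper1, Catsper3, Catsper4, Kcnu1 and Lrrc52 (upper panel) and of 7 spermatid markers (lower panel), as bars by group and replicate. Strep1 replicate 2 is lowest in both, and WT replicate 3 is highest in the members and Strep1 replicate 1 in the markers.

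Once group means were removed, the same blocks of genes deviated together across the 18 libraries. Pearson correlations of these deviations were 0.88 to 0.97 among Catsper1, Catsper3, Catsper4, Kcnu1 and Lrrc52 and 0.77 to 0.98 among Catsperb, Catsperd, Catsperg1 and Catsperg2, and Catsper2 correlated with no other member above 0.28. These are descriptions over 18 libraries in 6 groups of 3, with no test and no values of other genes beside them. On the log scale the first block varied more within 4n than within 1n groups. Catsper1, for example, spanned 5.37 to 12.8 RPM in 4n Strep1 and 195 to 224 RPM in 1n Strep1. In 1n WT replicate 2 the 4 auxiliary genes, Catsper1, Catsper3 and Kcnu1 were at their lowest among 1n libraries. The same library was lowest among the 1n libraries in summed spermatocyte markers (382 RPM). It was highest among them in summed markers of spermatids (6067 RPM), peritubular and endothelial cells (17.7 RPM), Sertoli cells (13.6 RPM) and Leydig cells (3.39 RPM). The part of these cells in its values was not tested.

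The genes whose RPM over the 18 libraries was most like that of a member were taken from 15617 genes averaging at least 1 RPM. For Catsper1 they were Fbxl13, Muc4 and Kcne3 (r = 0.9995, 0.9995 and 0.9991), for Kcnu1 Fam71d, Rmnd1 and Tmc5 (0.9990, 0.9989 and 0.9989), and for Lrrc52 Gm39566, Klf17 and Aqp7 (0.9994, 0.9988 and 0.9987). For Catsperg1 they were Gm26513, Pfkp and Abca17 (0.9945, 0.9912 and 0.9898). Such values mostly reflect the split by population, since 4675 genes correlated with Catsper1 above 0.95.

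The remaining genes listed with the CatSper complex also differed in direction among themselves. Of 9 measured, 4 were higher and 2 lower in 1n WT cells, and 5 were higher and 2 lower in each tagged line, where 43.2% of all genes were higher and 39.5% lower in WT. Efcab9, a calcium-binding regulator of the channel, averaged 91.6 ± 9.03 RPM in 1n against 5.81 ± 2.25 RPM in 4n WT cells, and Tmem249 93.2 ± 11.7 against 5.47 ± 1.87 RPM (SD, n = 3 each), with log2 fold changes of 3.84 and 3.94, while that of Tmem262 was 3.79. Catspere1 and Catspere2, genes of the epsilon subunit, were lower in 1n cells: Catspere1 averaged 25.1 ± 2.58 RPM in 1n against 214 ± 18.9 RPM in 4n WT cells, and Catspere2 26.2 ± 1.28 against 190.0 ± 18.7 RPM, with log2 fold changes of -3.27 and -3.03. Catsperz, whose product partners EFCAB9, had a log2 fold change of -0.02 and was not called. The list's median log2 fold change was 0.32 in Strep1, 0.30 in Strep2 and 0.10 in WT.

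**Figure D4:**
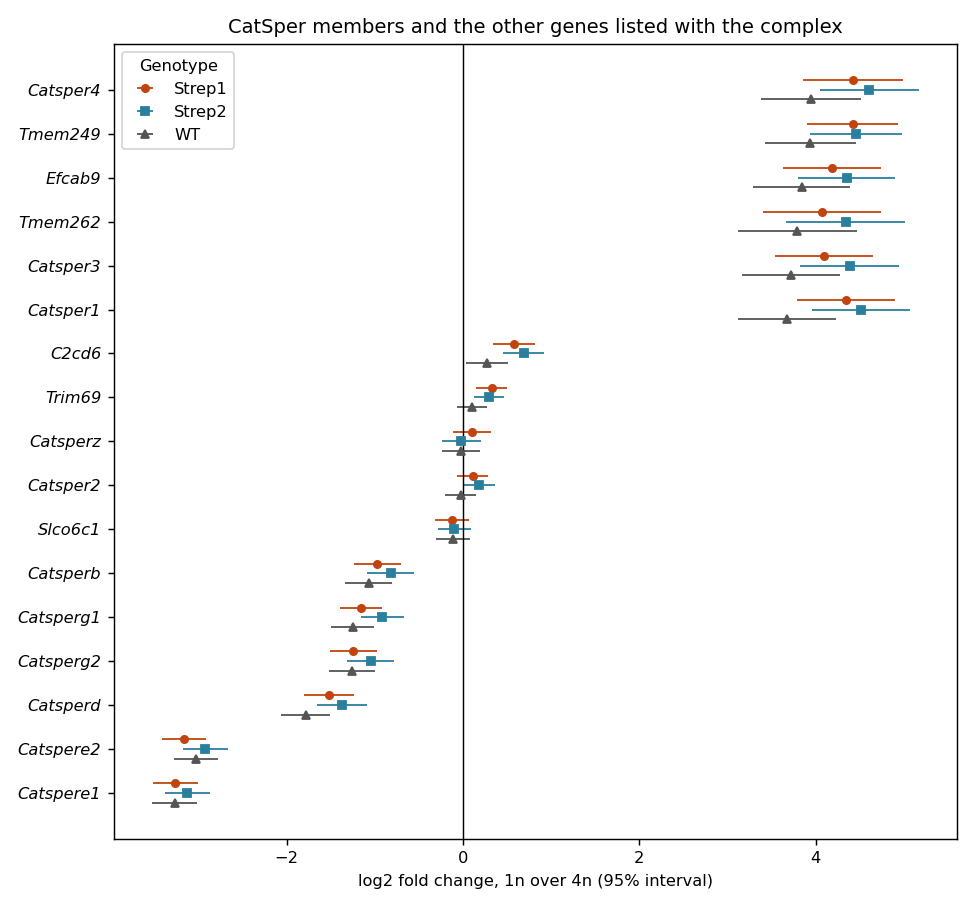
Log2 fold change of 1n over 4n cells for the 8 CatSper members and the 9 other genes listed with the complex in Strep1, Strep2 and WT, ordered by the WT value, with 95% intervals from limma. The genes form an upper group from 3.68 to 4.61, a middle group near 0 and a lower group down to -3.27.

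Genes of neighbouring functions were mixed, and their counts are to be read against 43.2% of all genes higher and 39.5% lower in 1n WT cells. Of 7 tested relatives of the potassium channel, 3 were higher and 2 lower in 1n WT cells; Lrrc26 and Lrrc55, relatives of Lrrc52, had log2 fold changes of 3.33 and 3.21, Kcnt2 1.99, Kcnmb3 -1.22 and Kcnmb4 -0.86. Of 11 tested voltage-gated calcium and endolysosomal channel genes, 8 were higher and 3 lower in 1n WT cells, with Cacna1a at 3.32, Cacna1e at 2.67, Cacna1i at -2.40 and Cacna1c at 1.72. Of 9 tested genes of ion and bicarbonate transport, 4 were higher and 5 lower in 1n WT cells; Atp1a4, the sodium pump of the sperm tail, had a log2 fold change of 3.99, Slc26a6 3.34, Slc9a3 -2.07 and Cftr 1.78. Of 14 genes of calcium and cAMP signalling, 8 were higher and 4 lower in 1n WT cells, with Prkar2a at 4.62, Akap4 at 4.22, Cabyr at 3.81 and Camk4 at 3.78; Akap4 is also among the spermatid markers. Between genotypes 1 gene of these lists was called, Akap3, an anchoring protein of the sperm tail, at 1083 ± 53.2 RPM in 1n Strep1 and 849.9 ± 50.1 RPM in 1n WT cells (SD, n = 3 each; log2 difference 0.33, adjusted p = 0.020 in limma), a contrast that coincides with the change of prefix. Of the marker genes Clu, of Sertoli cells, was called in the same contrast, at -0.73 (adjusted p = 0.043).

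The comparison of the tagged lines with WT addresses whether expression differs in mice with tagged MIWI, and 0 of 10 members were called in any of 6 contrasts between genotypes or in the 2 tests of whether the 1n against 4n change differed from WT (limma). Among all genes 1.35% were called in 1n Strep1 against WT, 0.11% in 1n Strep2 against WT, 0.97% in 4n Strep1 against WT and 0.401% in 4n Strep2 against WT. Some of these shares rest on few genes: the 74 called in 4n Strep2 became 14 to 27 without any 1 of the 6 libraries compared, the 23 in 1n Strep2 became 11 without 1n Strep2 replicate 3, and the 284 in 1n Strep1 became 165 to 184 without any 1 library of 1n Strep1. At an unadjusted p under 0.05 there were 3 members in 1n Strep1 (background 14.6%), 3 in 1n Strep2 (9.62%), 0 in 4n Strep1 (7.95%) and 1 in 4n Strep2 (16%). Of Strep1 against Strep2, where 1.36% of genes were called in 1n and 1.02% in 4n cells, 0 members had an unadjusted p under 0.05 in either population (background 9.29% and 7.25%).

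Lrrc52 had the smallest p of the members in 1n Strep1 against WT, with 30.2 ± 1.78 RPM in Strep1 and 24.9 ± 2.01 RPM in WT (SD, n = 3 each) and a log2 fold change of 0.26 (95% interval 0.08 to 0.44, limma adjusted p = 0.17). In 4n cells Lrrc52 had 1.55 ± 0.53 RPM in Strep1 and 2.01 ± 0.59 RPM in WT and a log2 fold change of -0.45 (-1.01 to 0.10, adjusted p = 0.74). In 4n Strep2 against WT it was again the member of smallest p, at -0.62 (-1.18 to -0.07, adjusted p = 0.27). In 1n Strep2 against WT that was Catsper3, at 82.9 ± 5.91 RPM in Strep2 and 67.8 ± 6.67 RPM in WT and a log2 fold change of 0.27 (0.08 to 0.46, adjusted p = 0.35). Between the lines Catsper3 in 1n cells, at -0.09 (-0.28 to 0.09, adjusted p = 0.87), and Catsperd in 4n cells, at 0.19 (-0.08 to 0.46, adjusted p = 0.78), had the smallest p for Strep1 over Strep2.

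All 10 members were positive in 1n Strep1 and in 1n Strep2 against WT (medians 0.16 and 0.17, beside 0.03 and 0.03 over all genes), comparisons that share the WT libraries. The signs are not separate observations, since the members other than Catsper2 deviated in correlated blocks. For some members the sign leans on 1n WT replicate 2. Catsperb had 101, 63.1 and 95.3 RPM in 1n WT replicates 1 to 3, beside means of 90.4 RPM in 1n Strep1 and 96.9 RPM in 1n Strep2. Catsperg2 had 217, 144 and 209 RPM there, beside 207.8 and 208.0 RPM. Catsper2, Catsper4 and Lrrc52 were not at their lowest in that library. In 4n cells 2 of 10 were positive in Strep1 and 0 of 10 in Strep2 (medians -0.09 and -0.23, beside -0.0036 and 0.0069 over all genes). In the test of whether the 1n against 4n change differed from WT, Lrrc52 had the smallest p of the members, at 0.71 in Strep1 minus WT (95% interval 0.08 to 1.34, limma adjusted p = 0.71) and 0.88 in Strep2 minus WT (0.26 to 1.51, adjusted p = 0.41) on the log2 scale, where 0.193% and 0.0438% of all genes were called. At an unadjusted p under 0.05 these tests held 1 member (background 6.14%) and 3 members (9.1%). The Strep1 minus WT test cannot be told apart from a change of prefix, since among its groups only 1n WT carries the other one. In 4n cells against WT the intervals of Catsper1, Catsper3, Catsper4, Kcnu1 and Lrrc52 spanned -1.27 to 0.48, and those of Catsper2 -0.26 to 0.07.

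**Figure D5:**
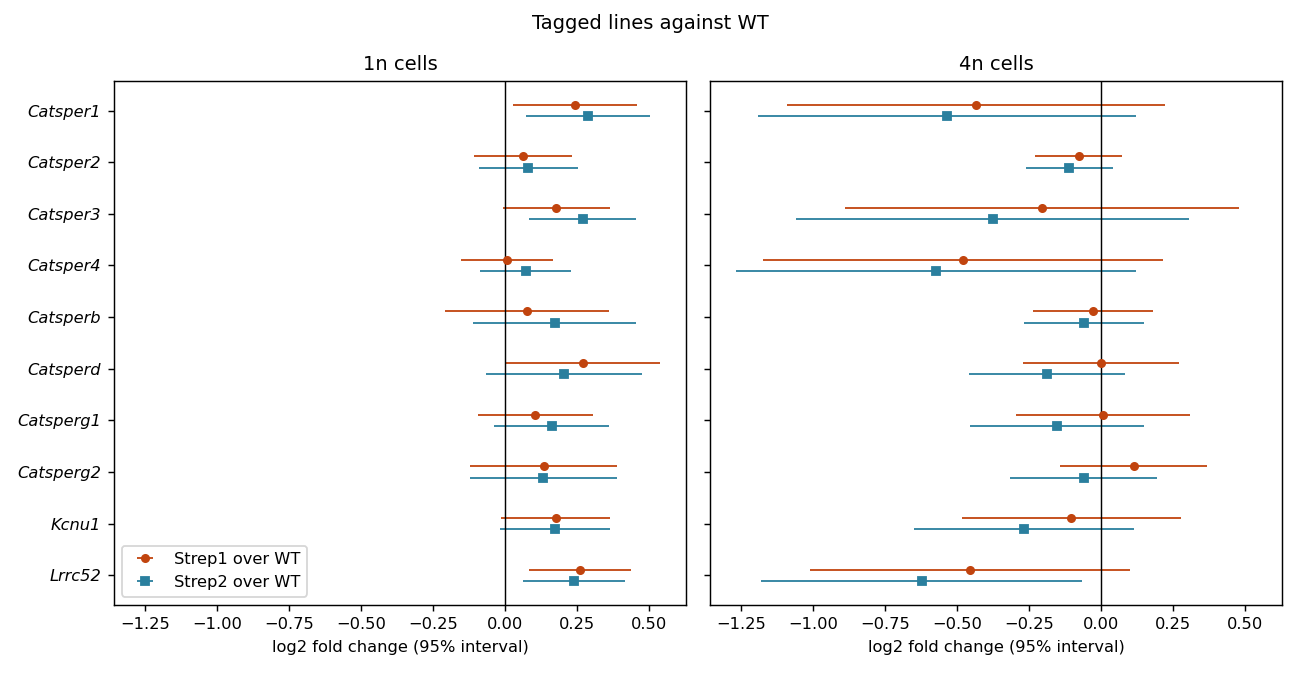
Log2 fold change of Strep1 and of Strep2 over WT for each gene in 1n cells (left) and 4n cells (right), with 95% intervals from limma. Points lie between 0.01 and 0.29 in 1n cells and between -0.62 and 0.11 in 4n cells, and intervals are widest for Catsper1, Catsper3, Catsper4 and Lrrc52 in 4n cells.

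The authors' deposited tables of their own comparisons, normalized within each population, called 0 of the 10 members at an adjusted p under 0.05 in each of 4 comparisons with WT. The authors' deposited tables called, of all rows, 2.26% in 1n Strep1, 0.536% in 1n Strep2, 1.09% in 4n Strep1 and 2.69% in 4n Strep2, so 0 of 10 is near the background. At an unadjusted p under 0.05 the authors' deposited tables held 3 members in 1n Strep1 (background 12.6%), 4 in 1n Strep2 (7.91%), 0 in 4n Strep1 (6.73%) and 1 in 4n Strep2 (16.4%). For Lrrc52 in 1n Strep1 the authors' deposited table gave a log2 fold change of 0.20 and an adjusted p of 0.134, and for Catsper3 in 1n Strep2 0.19 and 0.252. For Lrrc52 in 4n Strep1 the deposited log2 fold change was -0.023, much nearer no change than the limma value given above. Deposited and limma fold changes are therefore not taken as like measures.

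Antisense RNA over the members was sparse. Over the 18 libraries Catsper3, Kcnu1 and Catsperg2 stayed at or under 0.217 RPM antisense, and the highest values were 2.02 RPM at Catsper2 and 1.21 RPM at Lrrc52, both in 1n cells. The median antisense level of Lrrc52 was 1.02 RPM in 1n and 0.0966 RPM in 4n libraries, which is 3.52% and 5.83% of its sense level. For the other 9 members the antisense median was at most 0.513% of the sense median.

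Small RNA bound to purified tagged MIWI from Strep1 testes mapped in sense to all 10 members, as to 80.8% of 21834 protein-coding genes. Means over the 5 libraries were 0.348 to 2.93 RPM, with a median over the members of 1.98 RPM against 0.112 RPM over the protein-coding genes, and each member lay above 63.8% to 91.4% of those genes. The protein-coding genes were not matched to the members for transcript level or length, so these values do not show a preference of MIWI for the members. Catsper2 (2.93 ± 0.867 RPM), Catsperg1 (2.88 ± 1.58), Catsperd (2.55 ± 0.81) and Catsper1 (2.38 ± 1.85; SD, n = 5) were highest, and Lrrc52 was lowest at 0.348 ± 0.266 RPM. Antisense small RNA, which could pair with the mRNAs, averaged at most 0.0712 RPM, at Catsper2, and was listed at 0 in all 5 libraries for Catsper3, Catsper4 and Catsperb, as it was for 46.7% of protein-coding genes. No untagged control library was analysed here, so a background level for the purification is not known.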

How the data were processed

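Long RNA and MIWI-bound small RNA were analysed from tables deposited by the authors as RPM for the sense and antisense strands. The tools named in the submitters' processing notes are DESeq2, DESeq, Salmon 1.3.0, featureCounts, STAR, Bowtie and cutadapt, on GRCm39; which tool made which table, and the denominator of RPM, are not given in the sources used here. The authors' deposited comparison tables hold normalized signal, log2 fold changes, p-values and adjusted p-values. The 4 slicing libraries and 4 columns of the small RNA tables that belong to no sample were not used.

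Reads were counted in fractions: 39.6% to 44.3% of gene values were within 0.01 of whole multiples of the value of 1 read, so no count model was run. Values were tested as log2(RPM + 0.1) with limma 3.58.1 (R 4.3.3), keeping features that reached 0.3 RPM in 3 or more libraries, after trimmed-mean scaling over all features (30% of ratios and 5% of levels trimmed from each end). All 18 libraries were fitted for 1n against 4n cells and for differences of that change, and the 9 of a population for genotypes. Benjamini-Hochberg adjustment ran over all Ensembl genes tested. Log2 fold changes are on the log2(RPM + 0.1) scale and understate the change of low genes. The procedure was tested on simulated data in which few genes changed. For 1n against 4n cells in Strep1 it recovered 63 of 100 2-fold and 95 of 100 4-fold changes, with 1 false call. For 4n Strep1 against WT it recovered 67 of 100 and 93 of 100, with 7 false calls. Changes of 2-fold can therefore be missed. Promoters came from RefSeq, gene models from GENCODE M39.

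The members and gene lists were chosen with earlier results of these data known. All members are described for 1n against 4n cells; for other contrasts the called members, or else the one of smallest p; for lists up to 4 genes of largest WT change, or all called where 5 or fewer (Catspere2 and Catsperz were added after their values were seen); for likeness the 3 genes of highest r to Catsper1, Catsperg1, Kcnu1 and Lrrc52. Alternatives were pseudocounts of 0.01 and 1, no filter, RPM as deposited, median-of-ratios scaling, the replicate block, only the groups compared, and each library left out.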

Additional observations from a re-analysis of the deposited data

Results flagged for a closer look

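Among the 20 sets of 5 small RNA values (sense and antisense for 10 genes), 12 had 2 or more libraries above 0, and in 2 of these 1 library stood far from the other 4. For normally distributed values chance flags about 1 in 20, and whether that rate holds for such low values was not tested. In sense, library 1 held 5.57 RPM for Catsper1, against 0.807 to 2.16 RPM in the other 4. Its gap was 0.717 of the range, just past the limit of 0.71. In antisense, library 1 held 0.277 RPM for Catsper2, against 0 to 0.0469 RPM in the other 4. A further 5 sets were at 0 in 4 libraries, where any value above 0 in the fifth meets the rule, so the chance rate does not apply to them. There library 5 held 0.0178 RPM antisense to each of Catsper1, Catsperg1 and Catsperg2, library 3 held 0.0336 RPM for Kcnu1 and library 4 held 0.0264 RPM for Lrrc52, each below the value of 1 read in its library (0.0539, 0.0672 and 0.0528 RPM for libraries 5, 3 and 4). The remaining 3 sets were at 0 throughout. The cause of these values was not tested.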

How the results depend on the processing

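In 1n against 4n cells, 9 members (5 higher, 4 lower) were called in WT under every alternative run. In the tagged lines Catsper2 made it 10 with RPM as deposited or median-of-ratios scaling, and in Strep2 also without 1n replicate 1 or 4n replicate 2. Catsper2 in WT changed sign, to 0.15 with RPM as deposited, 0.10 with median-of-ratios scaling, 0.0042 with only the 2 groups compared and 0.0304 without 4n replicate 1 (-0.0714 to 0.0304 without 1 library), and was called in none of these. Members called stayed at 0 in the 8 contrasts of genotypes under every alternative run. The Catsperg1 to Catsperg2 ratio, 1n minus 4n, was 0.0609, and 0.0461 to 0.0694 without 1 library; its p passed 0.05 without 1n WT 2, 1n Strep2 2 or 3, 4n Strep2 2, 1n Strep1 3, or 4n Strep1 2 or 3. That ratio and the union-exon lengths were chosen after seeing the data.

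Genes called moved by over 1.5 times in some contrasts: 4n Strep2 against WT from 74 to 17 with no filter, 33 with RPM as deposited, 197 with only the 2 groups compared and 14 to 27 without 1 library; 1n Strep2 against WT from 23 to 13 with no filter and 11 to 22 without 1 library; 1n Strep1 against WT from 284 to 165 to 413 without 1 library. Leaving out single libraries gave 186 to 305 genes for Strep1 against Strep2 in 1n cells (286 with all) and 124 to 266 in 4n cells (188 with all). The difference of Strep1 from WT in the 1n against 4n change had 44 genes, 25 with a pseudocount of 0.01 and 86 with 1, and that of Strep2 had 10, 3 with a pseudocount of 0.01 and 6 to 12 without 1 library. The cause was not tested.

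Replicate numbers were not taken to pair the samples: deviations of same-numbered libraries correlated at -0.36 to 0.48 and of differently numbered ones at -0.60 to 0.49. The replicate block left the count of members called at 9 in 1n against 4n cells and gave 18878 called genes in WT, against 18888 without the block. Depth limits antisense values most, many of which lie near the value of 1 read.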
